A study of Mus musculus with 2 samples.

Results

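The S100 genes encode small calcium-binding proteins, and 10 of them, S100a1, S100a3, S100a4, S100a6, S100a8, S100a9, S100a10, S100a11, S100a13 and S100b, were followed in the RNA of mouse embryonic fibroblasts (MEFs) with and without normal DNA methylation. They were chosen by name, and each of the 10 was found once among the 29126 entries of the deposited expression table. Messenger RNA had been sequenced with strand-specific libraries from 1 sample of Dnmt1+/+ MEFs and 1 sample of Dnmt1-/- MEFs. According to the study's text, the cells called Dnmt1-/- carry a hypomorphic allele of Dnmt1, the gene for the maintenance DNA methyltransferase, on both chromosomes. Both the Dnmt1+/+ and the Dnmt1-/- cells also lack p53 (trp53-/-), so that no p53-proficient cells are part of the comparison. GEO's labels give the strain as unknown, and the age and sex of the embryos are not given in the sources used here. The value for each gene and library is an RPKM, a read density scaled to transcript length and library size, so that levels can be set side by side between genes. With 1 library per genotype there is no replicate check, and no test based on replicates was possible. None was run here, the q values that the study took from Cuffdiff were not used, and every difference below describes these 2 libraries.

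An S100 protein is built of a pair of EF hands, helix-loop-helix motifs of which the loop holds the calcium ion. Most S100 proteins work as dimers, which open a hydrophobic surface when calcium binds and then attach to partner proteins such as annexins, non-muscle myosin or p53. Some are also released from cells and act on receptors such as the receptor for advanced glycation end products. In fibroblasts the best known member is S100A4, also called fibroblast-specific protein, while S100A8 and S100A9 form calprotectin, a major protein of neutrophils, and S100B is a marker of glia. DNA methylation at CG dinucleotides is copied to the new strand at cell division by Dnmt1. CG dinucleotides near a gene's start are one place at which methylation can bear on a promoter. The study also proposes an indirect route, in which methylation lost elsewhere dilutes the repressive Polycomb complex PRC2 at its usual target genes. That route was not examined here.

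What the genes share in sequence is shown for 9 of them by the coding bases of the second calcium loop, which is the canonical EF-hand loop of the family. The loop was located in the coding sequence of the GENCODE M1 transcript with the longest reading frame as the 12 codons that follow a leucine codon and have an aspartate codon in the first and the fifth place, taking the last such stretch. Capitals mark the first codon, for aspartate, and the last codon, which in the canonical loop is for the glutamate that closes around the ion.
S100a1: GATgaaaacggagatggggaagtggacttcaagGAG
S100a3: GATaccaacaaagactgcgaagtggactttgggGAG
S100a4: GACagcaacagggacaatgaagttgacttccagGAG
S100a6: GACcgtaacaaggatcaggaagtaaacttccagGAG
S100a8: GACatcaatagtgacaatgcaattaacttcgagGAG
S100a9: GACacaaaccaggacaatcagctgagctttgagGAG
S100a10: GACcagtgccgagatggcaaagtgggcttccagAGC
S100a11: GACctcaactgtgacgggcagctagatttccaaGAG
S100a13: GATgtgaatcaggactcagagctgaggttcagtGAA

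In 8 of these 9 genes the last codon of the loop was GAG or GAA, both of which code for glutamate. The exception was S100a10 with AGC, a serine codon, and S100A10 is known as the member that does not need calcium to hold its annexin partner. The proteins encoded by the 10 genes were 89 to 113 residues long, and the spliced transcripts 392 to 1484 bases, with a median of 681 against 2314 for the longest transcript of each protein-coding gene in the annotation.

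The level of the S100 genes in the Dnmt1+/+ library ran from 0 to 979.7 RPKM. S100a6, which encodes calcyclin, was the most abundant of them. S100a10, the partner of annexin A2, followed at 399.2, S100a4 at 289.6 and S100a11, a partner of annexin A1, at 170.0 RPKM. Among the 14865 entries with a gene symbol and status OK, the label that Cuffdiff gives to entries it could test, S100a6 ranked 29, S100a10 ranked 106, S100a4 ranked 164 and S100a11 ranked 314. S100a13, whose product takes part in the release of growth factors that lack a signal peptide, and S100a1, best known from heart muscle, were at 22.4 and 22.2 RPKM. S100a3, known from the hair cuticle, was at 0.824 and S100b at 0.0107 RPKM, and S100a8 and S100a9 were listed at 0. Without replicates it cannot be said which neighbours in this order differ beyond the spread between samples.

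**Figure D1:**
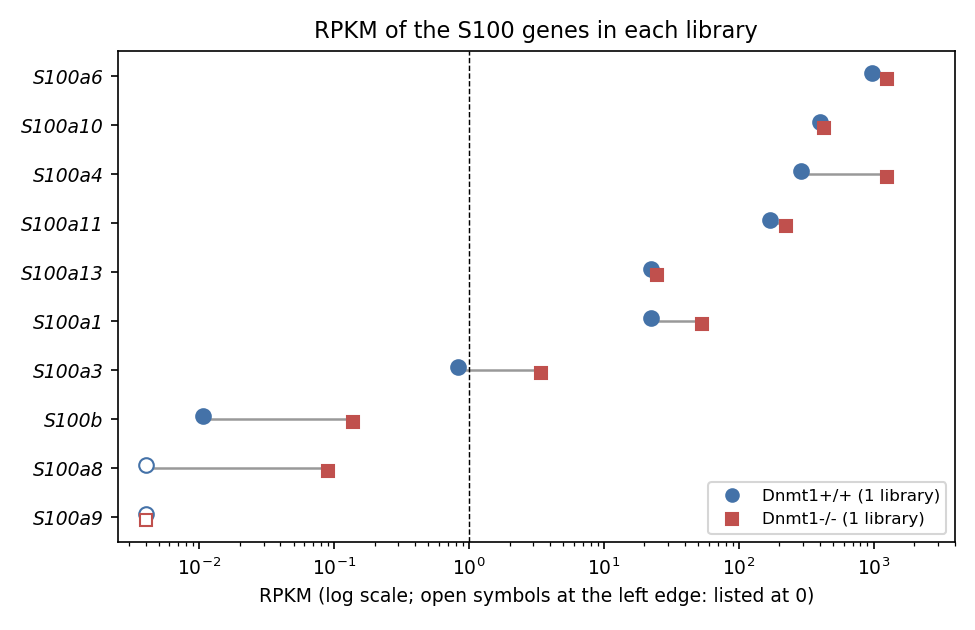
RPKM of the 10 S100 genes on a logarithmic axis, with 1 point for the Dnmt1+/+ library (circle) and 1 for the Dnmt1-/- library (square) of each gene, and a dashed line at 1 RPKM. S100a4 moves from 289.6 to 1262 RPKM and so reaches the level of S100a6, S100a1 parts from S100a13, and S100a9 stays at the left edge, where values of 0 are drawn as open symbols.

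In the Dnmt1-/- library S100a4, S100a3 and S100a1 were more than 2-fold higher, and no S100 gene that reached 1 RPKM in either library was lower. Differences are given on the log2(RPKM + 0.1) scale, on which the change of a gene with low RPKM is understated. The 10 genes lie in 10 separate entries, of which 8 had status OK, and 7 of these reached 1 RPKM in the Dnmt1+/+ or the Dnmt1-/- library. More than 2-fold higher in the Dnmt1-/- library were 3 of these 7 genes and 8.47% of all 11244 genes with status OK and this level. S100a3 entered this count only through the Dnmt1-/- library, in which it was the higher, so that the filter itself favoured its call, and the count is a description. None of the 7 was more than 2-fold lower, against 10.9% of all genes, so that 19.4% of all genes passed 2-fold in either direction. The median log2 difference of the 7 genes was 0.40. That of all 11244 genes was -0.14, with quartiles of -0.56 and 0.27. All 7 genes had a positive difference, and the share of all genes with a positive difference was not computed. Dnmt1 itself, which checks the labels, was at 65.2 RPKM in Dnmt1+/+ and 14.5 in Dnmt1-/- MEFs.

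**Figure D2:**
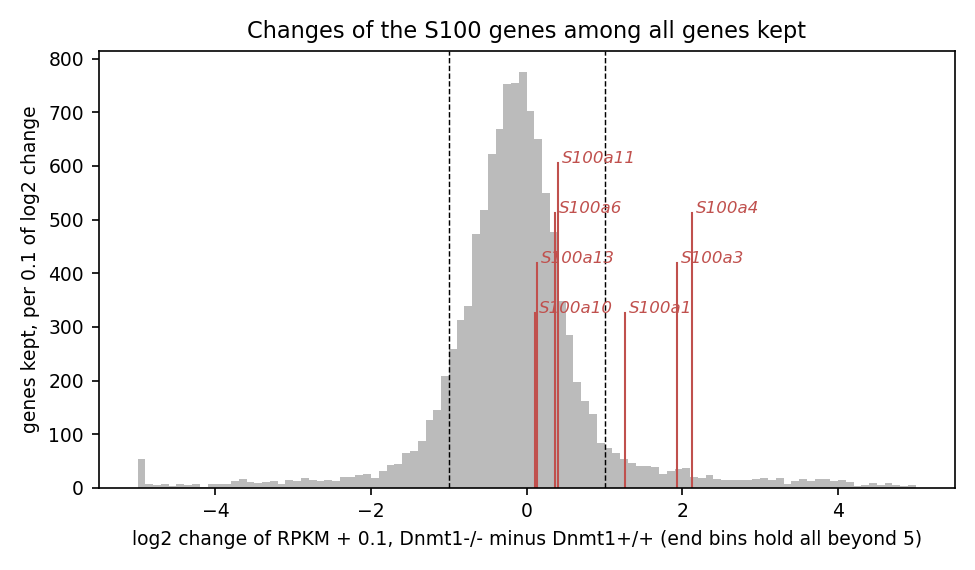
Histogram of the log2 difference between the Dnmt1-/- and Dnmt1+/+ libraries for the 11244 genes that reached 1 RPKM, in bins of 0.1, with all values beyond 5 in the end bins, red lines at the 7 S100 genes among them and dashed lines at a 2-fold difference. The line heights serve only to separate the names. S100a10, S100a13, S100a6 and S100a11 stand within the main peak, above its centre, and S100a1, S100a3 and S100a4 stand beyond the 2-fold line.

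S100a4 had the largest difference of the 7 genes. It was at 289.6 RPKM in Dnmt1+/+ and 1262 RPKM in Dnmt1-/- MEFs, which is 4.36-fold higher, a log2 difference of 2.12. Its rank among entries with a symbol moved from 164 to 16. The RPKM of S100a4 was 0.296 times that of S100a6 in Dnmt1+/+ MEFs, and in Dnmt1-/- MEFs the values of these nearby genes were nearly equal, at 1262 RPKM each. The summed RPKM of the 10 genes came to 1884 in the Dnmt1+/+ library and to 3260 in the Dnmt1-/- library, and S100a4 accounted for 70.6% of the increase. The share of S100a4 in this sum was 15.4% in the first library and 38.7% in the second.

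S100a1 and S100a3 were the other genes past 2-fold. S100a1 was at 22.2 RPKM in Dnmt1+/+ and 53.6 RPKM in Dnmt1-/- MEFs, 2.41-fold higher, a log2 difference of 1.27. S100a3 was at 0.824 RPKM in Dnmt1+/+ and 3.43 RPKM in Dnmt1-/- MEFs, 4.16-fold higher, a log2 difference of 1.93. Its rank moved from 10884 to 8651, so that it remained a gene of low level, next on the chromosome to the abundant S100a4.

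The other 4 genes that reached 1 RPKM stayed within 1.5-fold, as did 62.2% of all genes with status OK and this level. S100a6 was at 979.7 RPKM in Dnmt1+/+ and 1262 RPKM in Dnmt1-/- MEFs, with a log2 difference of 0.36. S100a11 was at 170.0 and 223.9 RPKM, a log2 difference of 0.40. S100a10 was at 399.2 and 431.3 RPKM, a log2 difference of 0.11, and S100a13 at 22.4 and 24.6 RPKM, a log2 difference of 0.14. In Dnmt1+/+ MEFs S100a4, which was past 2-fold, had stood between S100a10 and S100a11 in level, which were not.

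S100b, S100a8 and S100a9 remained under 1 RPKM in both libraries. S100b was at 0.0107 RPKM in Dnmt1+/+ and 0.137 in Dnmt1-/- MEFs, which passes 2-fold where no minimum level is set, a setting at which 9.92% of all 14865 entries were past 2-fold upward, 11.1% downward and 21.1% in either direction. With a pseudocount of 1 in place of 0.1 its log2 difference fell to 0.17. S100a8 was listed at 0 in Dnmt1+/+ and at 0.0905 RPKM in Dnmt1-/- MEFs, and S100a9 was listed at 0 in both, both genes with the status NOTEST. The calprotectin genes were thus at or near 0 in these fibroblasts in either state of DNA methylation. The table does not give the reads behind an RPKM, and no detection limit is set on these values here.

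Of the 10 genes, 9 lie on chromosome 3 and S100b lies on chromosome 10, where it runs from 75716598 to 75723904 in the plus orientation (NCBI37, the assembly called mm9, with genes as annotated in GENCODE M1). The chromosome 3 genes form 2 blocks that are 2825 kb apart. The larger block spans 184.7 kb and holds 12 S100 entries, and the smaller holds S100a11, from 93324410 to 93330209, and S100a10, from 93359002 to 93368565, both on the plus strand. In the larger block S100a1 runs on the minus strand from 90314956 to 90318314, and S100a13 on the plus strand from 90318357 to 90328503. Next on the plus strand among the 10 genes are S100a3, from 90404137 to 90406624, and S100a4, from 90407692 to 90409967. They are followed by S100a6, from 90416816 to 90418336, and S100a8, from 90472993 to 90473956. S100a9 closes the block on the minus strand, from 90496554 to 90499643.

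Of the genes past 2-fold, S100a3 and S100a4 lie next to each other, and S100a1 lies beside S100a13, which was not past it. S100a3 and S100a4 were 4.16-fold and 4.36-fold higher in the Dnmt1-/- library, and S100a6, which follows them downstream, 1.29-fold. S100a5, which lies between S100a4 and S100a6, was at 0.158 RPKM in Dnmt1+/+ and 0.992 RPKM in Dnmt1-/- MEFs, with a log2 difference of 2.08 below the minimum level. S100a16, also in this block, was at 0.782 and 3.15 RPKM, 4.03-fold higher, and was the one other S100 gene of 9 listed that reached 1 RPKM, which it too did in the Dnmt1-/- library alone. S100a7a was at 0.335 and 0.614 RPKM, S100a14 at 0.0161 and 0.0586, and S100z, on another chromosome, at 0 and 0.109. S100a2 and S100g were listed at 0 in both libraries. Of these 7 further S100 genes with an entry, 6 were under 1 RPKM in both libraries. S100a2, S100g and S100z, at 0 in Dnmt1+/+ MEFs, could not have been lower, so the direction of these genes is not counted.

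**Figure D3:**
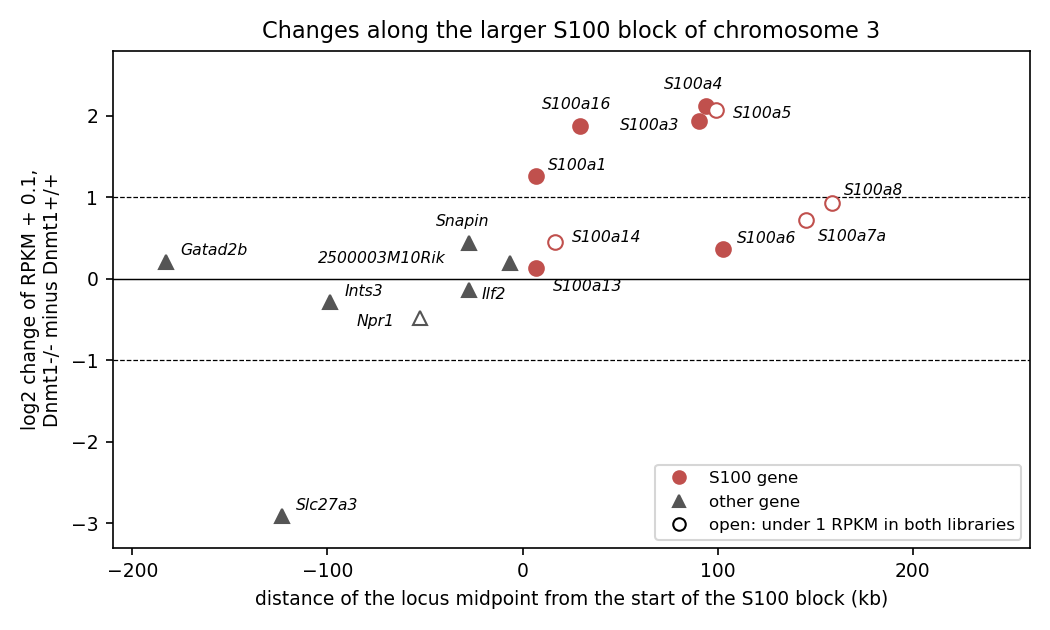
Log2 difference between the Dnmt1-/- and Dnmt1+/+ libraries along the larger S100 block of chromosome 3, for S100 genes (circles) and other genes (triangles) within 200 kb of it, against the distance of the deposited locus from the start of the block. Open symbols are under 1 RPKM in both libraries, dashed lines mark a 2-fold difference, and S100a2, S100a9 and Pglyrp4, listed at 0 in both, are left out. S100a1, S100a16, S100a3 and S100a4 lie above the upper line, as does the open symbol of S100a5, S100a13 and S100a6 do not, and Slc27a3 lies at -2.91.

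Next to the S100 genes, within 200 kb of the blocks, lay 13 entries of other genes, including 4 of the fused S100 type. Of these 6 reached 1 RPKM in either library, with 0 past 2-fold upward and 1 downward, beside 8.47% and 10.9% of all genes, and with a median log2 difference of 0.03. Slc27a3, which encodes an acyl-CoA synthetase of the fatty acid transport protein family, was more than 2-fold lower, at 5.68 RPKM in Dnmt1+/+ and 0.669 in Dnmt1-/- MEFs. Ilf2 was at 47.7 and 43.3 RPKM, 2500003M10Rik at 27.9 and 31.8, and Ints3, a subunit of the Integrator complex, at 18.9 and 15.5.

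S100a1 and S100a13 are transcribed away from each other from starts that are 43 bp apart, and the bases between them are shown because these 2 genes differed in their change. The stretch chr3:90318315-90318356 (mm9, plus strand, read towards S100a13) holds 1 CG dinucleotide, in capitals.
S100a1 to S100a13: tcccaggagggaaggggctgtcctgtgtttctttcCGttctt

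In Dnmt1+/+ MEFs the 2 genes had almost the same RPKM, with S100a1 at 0.991 times the level of S100a13. In Dnmt1-/- MEFs S100a1 was at 2.18 times the level of S100a13. In the deposited table both entries carry the same locus, and the sources used here do not say if read strand entered the assignment, so their separate values are uncertain to that extent. The annotated genes do not overlap.

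The upstream bases of S100a4, S100a6 and S100a11 are shown next, since these genes are all abundant and only S100a4 of them was past 2-fold. Capitals mark each CG dinucleotide, and the stretches end at the base before the annotated start, on the plus strand of mm9. They are chr3:90407442-90407691 for S100a4, chr3:90416566-90416815 for S100a6 and chr3:93324168-93324409 for S100a11.
S100a4: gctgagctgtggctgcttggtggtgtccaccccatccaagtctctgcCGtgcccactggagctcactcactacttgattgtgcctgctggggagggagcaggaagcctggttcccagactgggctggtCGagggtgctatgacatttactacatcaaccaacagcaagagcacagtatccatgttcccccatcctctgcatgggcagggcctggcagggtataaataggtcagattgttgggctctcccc
S100a6: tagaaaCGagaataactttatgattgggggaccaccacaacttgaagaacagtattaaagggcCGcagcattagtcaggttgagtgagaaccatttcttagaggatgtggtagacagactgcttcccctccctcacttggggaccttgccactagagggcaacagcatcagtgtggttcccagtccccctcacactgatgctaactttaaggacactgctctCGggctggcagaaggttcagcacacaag
S100a11: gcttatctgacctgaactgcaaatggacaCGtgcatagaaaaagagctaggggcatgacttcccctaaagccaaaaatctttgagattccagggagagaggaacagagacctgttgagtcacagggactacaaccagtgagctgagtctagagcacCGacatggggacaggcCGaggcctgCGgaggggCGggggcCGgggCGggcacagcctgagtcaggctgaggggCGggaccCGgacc

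S100a4 has 2 CG dinucleotides in these 250 bases, S100a6 has 3, and S100a11 has 9 in 242 bases. Over the RefSeq promoter windows of 300 bases (GRCm38.p6, from 250 bases before a start to 50 after it) 9 of the 10 genes had at least 1 window, and S100a10 had none in the table used. The S100a4 window held 2 CG dinucleotides, and 85.9% of all 32851 windows held at least as many. The windows of S100a11, S100a13 and S100a1, of which the latter 2 overlap, held 15, 14 and 11, against a median of 7 over all windows. S100a6 was in between with 6, S100a8 had 4, S100b 3 and S100a9 2, and the 4 windows of S100a3 had 0 to 5. Of these 4, only the window with 5 lay at the start of S100a3 given above, 90404137 in mm9. The upstream bases of the others began at 90388331, 90390624 and 90392235, far before the deposited locus of S100a3. The genes past 2-fold were thus S100a4 with a CG count under the median, S100a3 with all its windows under it and S100a1 above it. TATAAA, searched on both strands, was found in the windows of S100a4, S100a8 and S100a9 and in 13.6% of all windows. It was also found in 1 of the 4 windows of S100a3, which was not the window at 90404137. These are matches of letters only, and DNA methylation at these bases was not analysed here.

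Among the annexins, the membrane-binding proteins that several S100 proteins attach to, 9 of the 10 that reached 1 RPKM stayed within 2-fold, a share near that of all genes, of which 19.4% passed it. The list held 12 genes, none was more than 2-fold lower, and the median log2 difference was -0.25. Anxa2, whose product pairs with S100A10, was at 783.0 RPKM in Dnmt1+/+ and 1154 RPKM in Dnmt1-/- MEFs, with a log2 difference of 0.56. Anxa1, a partner of S100A11, was at 683.5 and 447.0 RPKM, a log2 difference of -0.61, and Anxa5 was at 482.5 and 354.8. The gene past 2-fold was Anxa8, at 0.480 and 4.44 RPKM, which likewise reached 1 RPKM in the Dnmt1-/- library alone.

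**Figure D4:**
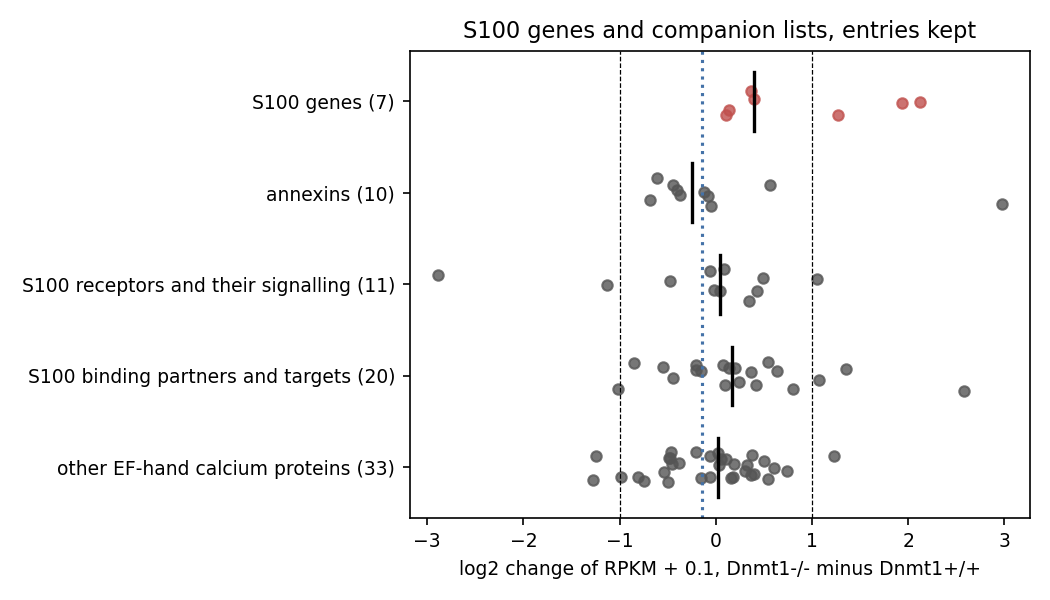
Log2 difference between the Dnmt1-/- and Dnmt1+/+ libraries of each entry that reached 1 RPKM, for the S100 genes and 4 lists of related genes, with the number of entries in brackets. Black bars are the medians of the lists, dashed lines mark a 2-fold difference, and the dotted line is the median of all 11244 genes, -0.14. The medians of the 4 lists lie between -0.25 and 0.17, and that of the S100 genes lies at 0.40.

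The receptors of released S100 proteins and their signalling genes comprised 15 genes, of which 11 reached 1 RPKM. Of the 11, 1 was past 2-fold upward and 2 downward, against 8.47% and 10.9% of all genes, and the median log2 difference was 0.04. Bsg, which encodes basigin, a receptor of S100A9, was by far the highest at 381.6 RPKM in Dnmt1+/+ and 483.7 in Dnmt1-/- MEFs. Cd14, a co-receptor of Tlr4, was at 1.51 and 3.23 RPKM, and with a pseudocount of 1 it was no longer past 2-fold. Alcam, an adhesion molecule, was lower at 37.1 and 4.92 RPKM, and Fgfr1 at 50.1 and 22.8 RPKM, the latter within 2-fold once the median of all genes was subtracted. Sdc4, which encodes syndecan 4, was at 41.8 and 58.9 RPKM. Ager, which encodes the receptor for advanced glycation end products, was at 0.728 and 0.424 RPKM, and Tlr4 at 2.06 and 1.46, both named after their values had been seen.

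Among 32 genes whose products bind S100 proteins or are their targets, 20 reached 1 RPKM, with 3 past 2-fold upward, 1 downward and a median log2 difference of 0.17. Over all genes the shares past 2-fold were 8.47% upward and 10.9% downward. Lgals3, which encodes galectin 3, was at 26.3 RPKM in Dnmt1+/+ and 158.3 RPKM in Dnmt1-/- MEFs, with a log2 difference of 2.59. Plaur and Plau, the urokinase receptor and urokinase of the plasminogen system that S100A10 is known to serve, were at 11.5 and 29.5 RPKM and at 15.2 and 32.004 RPKM. Plat, the other plasminogen activator, named after its value had been seen, was at 24.4 and 13.5 RPKM. Ndrg1 was at 42.2 and 20.8 RPKM, which was within 2-fold once the median of all genes was subtracted or with a pseudocount of 1. The targets of S100A4 in the cytoskeleton were abundant, with Myh9, the heavy chain of non-muscle myosin, at 630.4 and 919.1 RPKM and Tpm1, a tropomyosin, at 1233 and 1919, and Ppfibp1, a liprin that binds S100A4, was at 126.4 and 220.4.

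Of the genes for other EF-hand proteins, 33 entries reached 1 RPKM, with 1 past 2-fold upward and 2 downward, beside 8.47% and 10.9% of all genes, and with a median log2 difference of 0.02. Actn1, an alpha-actinin, was at 213.2 RPKM in Dnmt1+/+ and 499.9 in Dnmt1-/- MEFs. Rcn3, a protein of the secretory pathway, was at 224.5 and 92.5 RPKM, and Myl9, a regulatory light chain of myosin, at 216.6 and 91.1. The most abundant were Sparc at 897.3 and 918.4, Myl6 at 690.4 and 862.1 and Calu at 507.9 and 486.7 RPKM.

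As S100 genes also mark cell types, markers of fibroblasts and of other cells were read in the same libraries. In bulk RNA, fewer cells of a type and less RNA per cell cannot be told apart. The 12 fibroblast markers summed to 6279 RPKM in Dnmt1+/+ and 3828 in Dnmt1-/- MEFs, and of the 11 that reached 1 RPKM 1 was more than 2-fold higher and 4 were more than 2-fold lower, where 8.47% and 10.9% of all genes were. Vim was at 2269 and 1873 RPKM and Col1a1 at 1448 and 897.7, while Col1a2 was lower at 1241 and 475.9, Fn1 at 663.7 and 235.5, Postn at 176.6 and 13.7 and Thy1 at 4.84 and 0.129. Pdgfra was higher, at 6.95 and 18.7 RPKM. S100a4 was thus higher in the library in which most of the fibroblast markers past 2-fold were lower, and the part of this in the S100 values was not tested.

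The 16 myeloid markers summed to 0.855 RPKM in Dnmt1+/+ and 9.93 in Dnmt1-/- MEFs. This was carried by Csf1r, at 0.0702 and 6.08 RPKM, and Cd68, at 0.596 and 3.63, whereas 9 of the 16, with Ptprc, Emr1, Csf3r and Tyrobp among them, were listed at 0 in both libraries. The 8 glial markers were all under 1 RPKM, with Sox10 at 0.00895 and 0, beside the low S100b. The 4 endothelial markers were likewise all under 1 RPKM, with sums of 0.461 and 0.679.

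The 5 chondrocyte markers summed to 15.02 RPKM in Dnmt1+/+ and 10.4 in Dnmt1-/- MEFs, with Col2a1 at 6.40 and 0.0661, Comp at 0.344 and 4.96, Sox9 at 8.28 and 5.41, and Matn1 listed at 0. Of the 5 adipocyte markers Fabp4 alone reached 1 RPKM, at 0.459 and 6.74, while Cfd and Plin1 were listed at 0 and Adipoq was at 0.0119 and 0. The 9 markers of striated muscle summed to 37.5 and 74.6 RPKM, with Tnnt2 at 2.30 and 27.7, Acta1 at 28.8 and 42.8, Actc1 at 5.90 and 4.01, and Ckm at 0 and 0.0402. The rest of the muscle markers were under 1 RPKM in both libraries and were named after their values had been seen. Lower were Des at 0.318 and 0.0780, Myh7 at 0.109 and 0.00371 and Myh6 at 0.0284 and 0.00117. Higher were Myod1 at 0 and 0.0489 and Ryr2 at 0 and 0.00567. The 8 epithelial markers summed to 7.81 and 2.83 RPKM, and the lower sum was carried by Krt19, at 6.90 and 0.326. Higher in Dnmt1-/- MEFs was the joint entry of Krt14 and Krt17, at 0.0349 and 1.46 RPKM. The other 6 were under 1 RPKM in both libraries and were named after their values had been seen. Of these, Krt18 was higher, at 0.0358 and 0.441, as was Krt8, at 0 and 0.216. Lower were Trp63 at 0.549 and 0.312, Cdh1 at 0.203 and 0.0700, Epcam at 0.0466 and 0.00921 and Krt5 at 0.0425 and 0. The part of these markers in the S100 values was not tested.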

How the data were processed

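The deposited table was made by the authors, who per the submitters' processing notes used TopHat for mapping to mm9, Cufflinks for assembly and Cuffdiff for abundance, and deposited an RPKM per entry and library with a status. Versions and any further scaling are not given in the sources used here. The column of the wild type was taken as Dnmt1+/+ and that of the knock-out as Dnmt1-/-. RPKM values give no counts, so no depth was taken from the table and no interval is given. The study's supplement lists the mapped reads of each library, which were not used here.

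Entries were matched by gene symbol. Genes were kept if they had a symbol, status OK and at least 1 RPKM in either library, and differences were taken on log2(RPKM + 0.1), with more than 2-fold counted. The counting was tested on simulated data with little noise and planted changes well past 2-fold. There 1 RPKM was added to each Dnmt1+/+ value, so genes under that level in Dnmt1+/+ were not covered. Promoter windows are those of RefSeq (GRCm38.p6), and the upstream bases printed were matched exactly, each at 1 place, in NCBI37. The loop sequence of S100b is not reported here.

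The members and lists were chosen with earlier results of these data known. Named were all S100 genes with an entry, Dnmt1, and of each list the genes past 2-fold, up to 6 in each direction, the 3 with the highest mean RPKM and defining markers listed at 0. Python 3.11.15, numpy 2.4.6, pandas 2.3.3, Biopython 1.88 and matplotlib 3.10.9 were used.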

Additional observations from a re-analysis of the deposited data

How the results depend on the processing

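The number of S100 genes more than 2-fold higher was 3 and stayed between 2, at a 3-fold threshold, and 4, without a minimum RPKM, and the number lower was 0 under all 9 alternatives. The shares of all genes past 2-fold were 8.47% upward and 10.9% downward in the main setting. Without a minimum RPKM they were 9.92% and 11.1%. Such shares were not computed for the other settings, the 1.5-fold and 3-fold thresholds among them, so those counts are descriptions. The median log2 difference of the S100 genes, 0.40, was 0.75 without a minimum RPKM, where S100b entered, and 0.54 after subtraction of the median of all genes. The receptor genes more than 2-fold higher went from 1 to 0 with a pseudocount of 1, where Cd14 was lost, and those lower from 2 to 1 after subtraction of the median, where Fgfr1 was lost. The binding partners more than 2-fold lower went from 1 to 0 under both of these settings, where Ndrg1 was lost. Of 92 values recomputed, 83 kept their side of 2-fold, stayed within 1.5 times the count or moved a median by under 0.1. The settings could not turn a positive difference of an S100 gene negative, so the direction was not checked by them. No paired analysis was possible because each genotype had 1 library, for which reason no library could be left out either.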

Other observations

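Near the smaller S100 block of chromosome 3 lie genes of the fused S100 type, which encode large proteins of the cornified layer of skin that begin with an S100 domain. Of 7 such genes 6 had an entry, all were under 1 RPKM in both libraries, and Crnn, Flg2, Hrnr and Tchhl1 were listed at 0. Tchh, which encodes trichohyalin of the hair follicle, was at 0.0317 RPKM in Dnmt1+/+ and 0.135 in Dnmt1-/- MEFs, and Rptn at 0 and 0.0148. S100pbp, which encodes a protein that binds S100P and is no S100 protein itself, was at 9.79 and 5.78 RPKM, a log2 difference of -0.75.

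Trp53, which encodes p53 and so a known target of S100A4 and S100B, was at 18.6 RPKM in Dnmt1+/+ and 19.9 in Dnmt1-/- MEFs, although both lines are described as null for it. Gene-level values do not show which part of the transcript the reads cover. Mdm2 was at 24.5 and 25.8 RPKM. Both were named after their values had been seen.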
